A study of Mus musculus with 39 samples.

Results

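The 10 genes described here, which serve fatty acid uptake and triglyceride synthesis, were followed in mouse subcutaneous adipose tissue: Lpl, Cd36, Slc27a1, Fabp4 and Fabp5 for uptake, and Gpam, Agpat2, Lpin1, Dgat1 and Dgat2 for synthesis. They were chosen by name, as the 10 of 29411 gene names on the array that equal these symbols, and all of their 19 probes were read. The tissue came from C57BL/6J mice that were divided into 5 diet groups after weaning at 3 to 4 weeks of age, with 30 animals per group and 5 animals killed per interval. LFC mice received a diet with 10% of calories from fat, and HFC mice a diet with added sucrose and 60% of calories from fat. HF5, HF20 and HF75 mice received the HFC diet with 5, 20 or 75 µg of the ethnobotanical formulation KAL-1, so all KAL-1 groups also carry the high-fat diet. There were 10 LFC arrays (Day 6 to Week 18), 11 HFC arrays (Day 1 to Week 18), and 6 arrays each of HF5, HF20 and HF75 (Week 3 to Week 18). Each of the 39 arrays stands for 1 diet at 1 time point, and the labels do not say how many animals gave its RNA.

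Fat cells take up fatty acids that lipoprotein lipase (Lpl) frees from circulating lipoproteins. CD36 and the transport protein FATP1 (Slc27a1) carry them across the membrane, and the binding proteins Fabp4 and Fabp5 hold them in the cytosol. In the glycerol phosphate pathway, Gpam adds the first acyl chain to glycerol 3-phosphate, Agpat2 adds the next, Lpin1 removes the phosphate, and Dgat1 and Dgat2 complete the triglyceride. Cd36, Fabp4 and Fabp5 are also known from capillary endothelium and macrophages, and Lpl, Cd36 and Lpin1 from muscle.

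Between 49.3% and 87.8% of the spots on an array were well above background (median 65.7%), and the 75th percentile of the intensity ran from 108 to 1285 scanner units. The HF20 array of Week 15 had the highest of these shares and 4936 outlier-flagged spots, against at most 474 on any other array. HF20 values below include it, except in alternatives that leave out this array or Week 15. Levels are given as the log2 of a spot's processed signal minus the log2 of its array's 75th percentile, which puts the 75th percentile itself at 0, and a difference of 1 is a doubling of the signal. At Week 12 the labels and the deposited table of log2 ratios disagreed on which array was HF5 and which HF20. The table's HF5 column correlated at r = 0.664 with the array labelled HF5 and at r = 0.999 with the array labelled HF20, while the 26 other columns correlated with their own arrays at 0.994 or more. The labels were kept, and values with both arrays exchanged are given where they matter. All 6 adipocyte markers examined (Adipoq, Cfd, Retn, Lep, Adrb3, Lipe) were well above background on all 39 arrays, and Cfd was saturated on 24 of them, Adipoq on 7 and Adrb3 on 2. For the time points shared by LFC and HFC, the arrays of both diets were scanned on the same day except at Day 6 and Week 12.

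The probe decided how Fabp4 could be read. Its brightest probe, GT_Mm_44k_51_P336833, and the probe GT_Mm_44k_51_P336830 were saturated on 38 of 39 arrays, so they give a lower limit and no difference between diets. The level of the brightest probe followed the array's own brightness, with r = -0.99 between its level and the log2 of the 75th percentile over the 39 arrays. The remaining Fabp4 probe, GT_Mm_44k_52_P564544, was saturated on no array and had r = 0.06, and Fabp4 values below are from it unless the brightest probe is named. The alternatives, and the counts of genes under a p threshold, use the brightest probe of each gene. HFC minus LFC over 10 time points was -0.49 by the brightest probe and 0.18 by the unsaturated one. The brightest probes of Lpl, Dgat2 and Cd36 were saturated on 7, 6 and 1 arrays, and Lpl and Dgat2 each also have a probe that was saturated on none. The saturated and the unsaturated Fabp4 probe, the unsaturated Lpl and Dgat2 probes, and the overlapping Agpat2 pair are shown because the readings below rest on them. All are 60 bases long, and the capitals in the Agpat2 pair mark the 40 bases that both share, so these probes are not separate measurements of the transcript.
Fabp4 GT_Mm_44k_51_P336830, saturated on 38 arrays: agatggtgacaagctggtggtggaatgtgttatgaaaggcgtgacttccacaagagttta
Fabp4 GT_Mm_44k_52_P564544, saturated on no array: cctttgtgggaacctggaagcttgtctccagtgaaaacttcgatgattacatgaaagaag
Lpl GT_Mm_44k_52_P257812, saturated on no array: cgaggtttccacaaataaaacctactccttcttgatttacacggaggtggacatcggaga
Dgat2 GT_Mm_44k_52_P359739, saturated on no array: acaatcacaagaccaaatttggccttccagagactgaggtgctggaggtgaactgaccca
Agpat2 GT_Mm_44k_51_P238565: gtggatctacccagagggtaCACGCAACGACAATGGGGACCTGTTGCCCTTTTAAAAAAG
Agpat2 GT_Mm_44k_51_P238563: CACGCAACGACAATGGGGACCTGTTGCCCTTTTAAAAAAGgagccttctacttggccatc

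**Figure D1:**
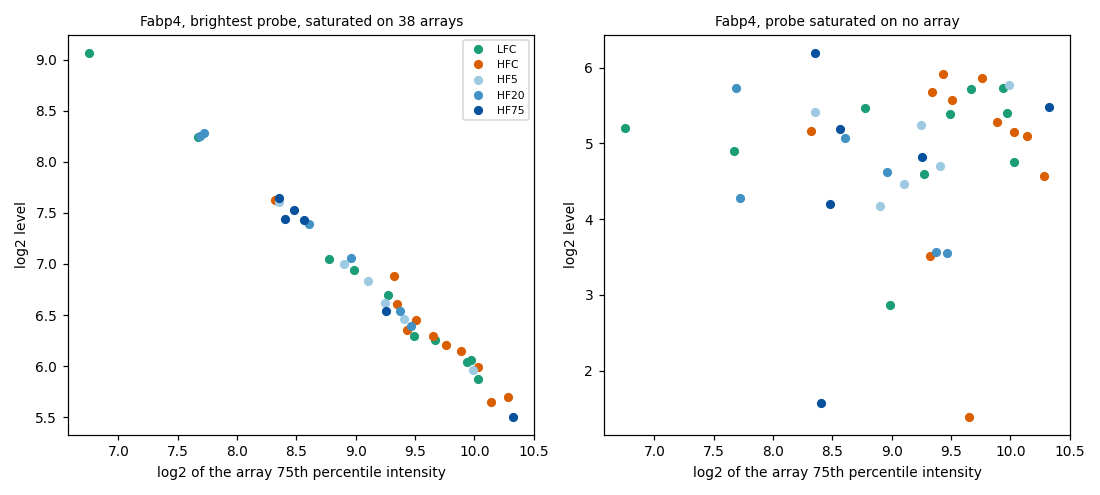
Level of Fabp4 (log2, y axis) against the log2 of the array's 75th percentile intensity (x axis) for 39 arrays, coloured by diet, by the brightest probe (left) and by the probe saturated on no array (right). The left points fall on a line (r = -0.99), and the right ones do not (r = 0.06).

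Of the 19 probes, 18 were well above background on every array. The exception was the single Gpam probe, which was well above background on 28 of 39 arrays, and its levels on the other 11 are only upper limits. Different probes of a gene mostly moved together: r over 39 arrays was 0.98 for the Dgat1 pair, 0.98 to 0.99 for the Lpin1 probes, 0.95 to 1.00 for the Dgat2 probes, 0.99 for the Agpat2 pair (38 arrays) and 0.87 for the Lpl pair. The Agpat2 pair and 2 of the Lpin1 probes share 40 bases. Levels of different probes are not compared with each other.

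**Figure D2:**
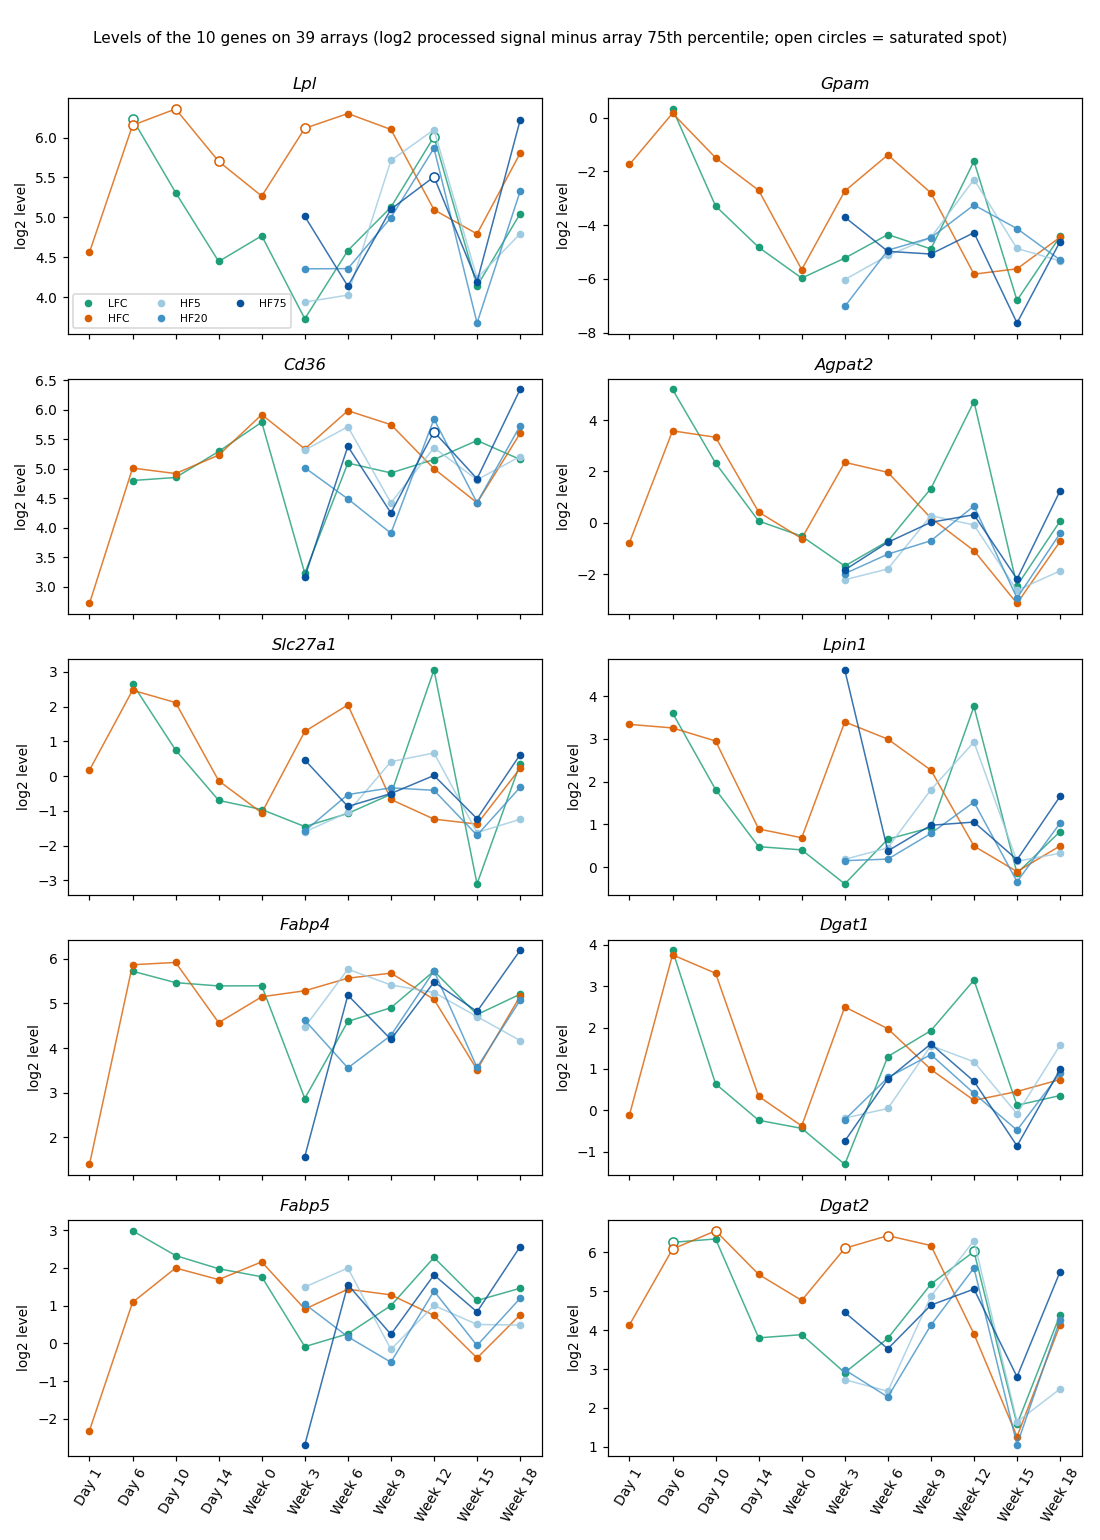
Level (log2 processed signal minus log2 array 75th percentile, y axis) of the 10 genes at each time point (x axis), 1 point per array, coloured by diet. Lines link the arrays of a diet, which come from different animals, and open circles are saturated spots. Fabp4 is drawn by its unsaturated probe. HFC levels at Week 3 and Week 6 lie above LFC in every panel, and at Week 12 below.

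The first question was whether the genes differed between the high-fat and the low-fat diet. Averaged over the 10 time points with both diets, 8 of the 10 were higher on HFC and 2 (Fabp5 and Agpat2) lower, with a median difference of 0.46 against -0.04 over all genes. Gpam was among the 8, but its difference was -0.21 after normexp background correction, a setting that keeps dim signals above 0. With the time point and scan day together as the block, Agpat2 was at 0.67 and Fabp5 at 0.0012. In that fit the Day 6 and Week 12 pairs, scanned on different days, no longer enter the difference. None of the 10 passed the adjusted threshold of 0.05 in limma with the time point as a block, nor did any other gene (0% of 19873). Lpl was the only one with an unadjusted p under 0.05, which 5.86% of all genes reached. With scan day in the block, 5 genes were under an unadjusted 0.05 in limma, namely Lpl (1.16), Gpam (1.61), Slc27a1 (1.14), Lpin1 (1.13) and Dgat2 (1.12), and without Week 12 they were the same 5. Both settings take out Week 12, where all 10 genes were lower on HFC, so they are not separate checks and do not adjust for scan day. The share of all genes under 0.05 in these 2 fits is not given here. The LFC and HFC ranges overlapped for all 10 genes.

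Lpl, the lipase that frees fatty acids at the capillary wall, had the clearest diet difference. By its brightest probe the 10 LFC arrays lay between 3.73 and 6.23 (median 4.91), and the 10 HFC arrays of the same time points between 4.79 and 6.36 (median 5.95). HFC was above LFC at 8 of 10 time points. The mean difference was 0.83 (SE 0.28, 95% interval 0.22 to 1.44), which is 1.78-fold, with an unadjusted limma p of 0.0118 and an adjusted p of 0.803. HFC minus LFC was -0.08 at Day 6, 1.05 at Day 10, 1.25 at Day 14, 0.50 at Week 0, 2.38 at Week 3, 1.71 at Week 6, 0.97 at Week 9, -0.91 at Week 12, 0.65 at Week 15 and 0.76 at Week 18. Since 2 of the LFC and 4 of the HFC spots were saturated, those differences are uncertain in size. The unsaturated Lpl probe gave 1.00 (SE 0.53, n = 10 time points), with HFC higher at 7 of 10 and an unadjusted limma p of 0.0819.

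For the other uptake genes the diets were close relative to their spread. Cd36, the fatty acid translocase, ran from 3.23 to 5.79 on LFC (median 5.13) and from 4.43 to 5.99 on HFC (median 5.29). Its mean difference was 0.34 (95% interval -0.23 to 0.90), with HFC higher at 7 of 10 time points. Slc27a1 ran from -3.10 to 3.05 on LFC (median -0.61) and from -1.38 to 2.47 on HFC (median 0.04), with a mean difference of 0.46 (95% interval -0.81 to 1.74) and HFC higher at 5 of 10.
Fabp4, the fatty acid-binding protein of mature fat cells, ran from 2.87 to 5.73 on LFC (median 5.30) and from 3.52 to 5.92 on HFC (median 5.22) by the unsaturated probe. Its mean difference was 0.18 (95% interval -0.51 to 0.86), with HFC higher at 5 of 10. Fabp5, the epidermal-type binding protein, was the uptake gene with a negative mean difference, -0.34 (95% interval -1.04 to 0.36), and was higher on HFC at 4 of 10. Its LFC arrays ran from -0.08 to 2.98 (median 1.61) and its HFC arrays from -0.39 to 2.16 (median 1.19).

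Among the synthesis genes the differences at single time points had both signs, and the means had wide intervals. Agpat2, the acyltransferase whose loss causes lipodystrophy, ran from -2.45 to 5.20 on LFC (median 0.07) and from -3.14 to 3.58 on HFC (median 0.30), and its mean difference was -0.21 (95% interval -1.82 to 1.41). Dgat2 ran from 1.58 to 6.34 on LFC (median 4.14) and from 1.27 to 6.55 on HFC (median 5.76), with a mean difference of 0.67 (95% interval -0.31 to 1.64). The unsaturated Dgat2 probe gave 0.60 (95% interval -1.08 to 2.29).
The remaining synthesis genes had mean differences above 0 with intervals that include 0. Gpam gave 0.86 (95% interval -0.42 to 2.13), Lpin1 0.54 (95% interval -0.61 to 1.69) and Dgat1 0.46 (95% interval -0.67 to 1.58). Each of these was higher on HFC at 7 of 10 time points. Without Week 3 the differences were 0.18 for Lpin1, 0.08 for Dgat1, 0.39 for Dgat2, 0.14 for Cd36, 0.21 for Slc27a1 and -0.68 for Agpat2. Without Week 12 they moved the other way, to 0.96 for Lpin1, 0.83 for Dgat1, 0.98 for Dgat2, 0.99 for Slc27a1, 1.42 for Gpam and 0.42 for Agpat2.

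At Week 3, Week 6 and Week 12 all 10 genes differed in 1 direction, while at the other time points both directions occurred. At Week 3 all 10 were higher on HFC, by 0.99 (Fabp5) to 4.04 (Agpat2), with a median of 2.61, while 47.6% of all genes tested were higher on HFC. At Week 6 all 10 were again higher, by 0.67 (Dgat1) to 3.12 (Slc27a1), with a median of 2.03, against 44.3% of all genes. At Week 12 all 10 were lower on HFC, from -0.16 (Cd36) to -5.81 (Agpat2), with a median of -2.52, against 46.5% of all genes higher. Agpat2 shows the turn: its level was -1.68 on LFC and 2.36 on HFC at Week 3, and 4.72 on LFC and -1.08 on HFC at Week 12. Lpin1 did likewise, with -0.39 and 3.40 at Week 3 and 3.76 and 0.49 at Week 12. With 1 array per diet and time point these single differences have no replicate and no test.

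The adipocyte markers moved with the genes. The mean of the 6 markers was higher on HFC by 3.40 at Week 3 and 2.72 at Week 6, and lower by 2.72 at Week 12. Skeletal muscle markers differed by -3.98, -0.68 and -1.76 at these time points, and lymphocyte markers by -6.47, -2.13 and -0.31. Markers of mammary and simple epithelium differed by -2.32, -2.02 and 2.22, opposite in sign to the genes at all 3. Signal near background limits that list: Csn2 was well above background on 0 of 39 arrays, Csn3 on 5, Wap on 13 and Epcam on 26. Averaged over the 10 time points, HFC minus LFC was 0.62 (SD 1.91) for the adipocyte markers and 0.68 (SD 0.89) for the macrophage markers. It was -0.82 (SD 2.75) for skeletal muscle and -1.04 (SD 2.45) for lymphocyte markers. In whole tissue, fewer cells of a type and less RNA per cell cannot be told apart, and the part of these markers in the differences was not tested.

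**Figure D3:**
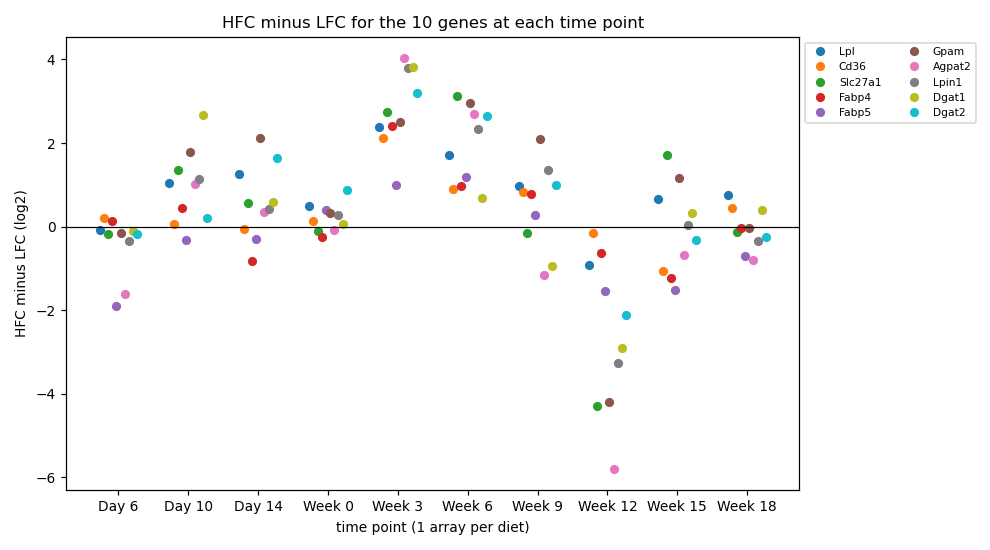
HFC minus LFC (log2, y axis) for the 10 genes at each of 10 time points (x axis), 1 array per diet. All 10 genes lie above 0 at Week 3 and Week 6 and below 0 at Week 12, from -0.16 to -5.81.

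The second question was whether the diet difference changed with time. Late (Week 3 to Week 18) minus early (Day 6 to Week 0), the change in HFC minus LFC was within -0.58 (Dgat1) and 0.49 (Fabp4, unsaturated probe) for all 10. None passed the adjusted threshold in limma (0% of all genes), and none of the 10 had an unadjusted p under 0.05, which 1.89% of all genes reached. In the fit of Week 3 to Week 18 alone, HFC minus LFC for Lpl was 0.93 (SE 0.34) with an unadjusted limma p of 0.012 and an adjusted p of 0.85. There too no gene passed after adjustment (0%), Lpl was the only one of the 10 under an unadjusted 0.05, and 5.06% of all genes were. The 95% interval for Lpl ran from 0.22 to 1.63. Without Week 3 the value was 0.64 with p = 0.091 in limma.

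Averaged over both diets, all 10 genes were lower at the 6 late than at the 4 early time points by the probes used here, with a median of -0.71 against -0.01 over all genes. In limma 44 genes in the series passed the adjusted threshold (0.221% of 19873), and none of the 10 did. Fabp5 was the only one with an unadjusted p under 0.05, which 13.3% of all genes reached. Its 8 early arrays lay between 1.09 and 2.98 (median 1.99), and its 12 late arrays between -0.39 and 2.28 (median 0.95). The ranges overlap through 2 arrays, the HFC array of Day 6, which was the lowest early one, and the LFC array of Week 12, which was the highest late one. Late minus early was -1.10 (SE 0.30, 95% interval -1.72 to -0.48), or 0.467-fold, with p = 0.0015 and an adjusted p of 0.116 in limma. With array weights the adjusted p was 0.0282. With the arrays of a time point averaged first, so that each time point counts once, the limma p of Fabp5 was 0.00177, no gene of the series passed after adjustment, and 1752 had an unadjusted p under 0.05. Early and late arrays shared no scan day, so scan day and period cannot be told apart.

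Agpat2 had the largest late minus early difference in size, -1.65, but with a 95% interval of -3.66 to 0.35. Gpam gave -1.25 (95% interval -3.05 to 0.56) and Dgat2 -1.07 (95% interval -2.44 to 0.31). Fabp4 gave -0.57 (95% interval -1.27 to 0.12) by the unsaturated probe. The adipocyte marker mean was 3.47 ± 1.32 (SD, n = 8) early and 2.78 ± 1.78 (SD, n = 12) late, and the skeletal muscle marker mean 1.29 ± 3.21 (SD, n = 8) early and -1.33 ± 2.38 (SD, n = 12) late. Their part in the differences was not tested.

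Per week from Week 3 to Week 18 and over all 5 diets, 20 genes had a slope that passed the adjusted threshold in limma (0.0948% of 21087), and none of the 10 was among them. None of the 10 had an unadjusted p under 0.05 for its slope, against 15.5% of all genes. With each time point counted once no gene passed, and 1092 had an unadjusted p under 0.05. Of the 10 slopes, 5 were above 0 and 5 below.

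The third question was whether KAL-1 shifted the genes relative to HFC alone. All KAL-1 comparisons share the 6 HFC arrays of Week 3 to Week 18, so their values are not independent. Averaged over the 6 time points, 9 of the 10 genes had a negative difference from HFC in HF5, 10 in HF20 and 10 in HF75, with medians of -0.70, -0.90 and -0.44. Of all genes 50.2%, 55.5% and 50.2% were higher than on HFC, with medians of 0.00, 0.05 and 0.00. The same HFC arrays were above LFC at Week 3 and Week 6, and against LFC 6, 9 and 5 of the 10 genes were lower, with medians of -0.13, -0.37 and -0.01. Among all genes 43.8%, 50.6% and 46.1% were higher than on LFC, so the counts for HF5 and HF75 lie near that share. Several of these differences from LFC lie near 0 and changed sign under another scaling, as did Gpam in HF5 (-0.14, and 0.10 with quantile normalization) and Cd36 in HF20 (0.06, and -0.37 with normexp background correction). No gene of the series passed the adjusted threshold in limma in any of these comparisons (0%). Unadjusted, 1.36% of all genes had p under 0.05 for HF5 minus HFC, 4.22% for HF20 minus HFC and 5.02% for HF75 minus HFC. Of the 10 genes 2 (Lpl and Dgat2) were under it for HF5, the same 2 for HF20 and none for HF75. With the time point and scan day together as the block there were 5 for HF5 (Lpl, Dgat2, Agpat2, Gpam and Slc27a1), 3 for HF20 (Lpl, Dgat2 and Lpin1) and none for HF75, and without Week 12 Lpl and Gpam were under it for HF75. The shares of all genes above are of the main fit, and those of these fits are not given. HF5 and HF20 were scanned on another day than HFC at Week 12, and HF20 and HF75 at Week 6, so those pairs share no such block.

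**Figure D4:**
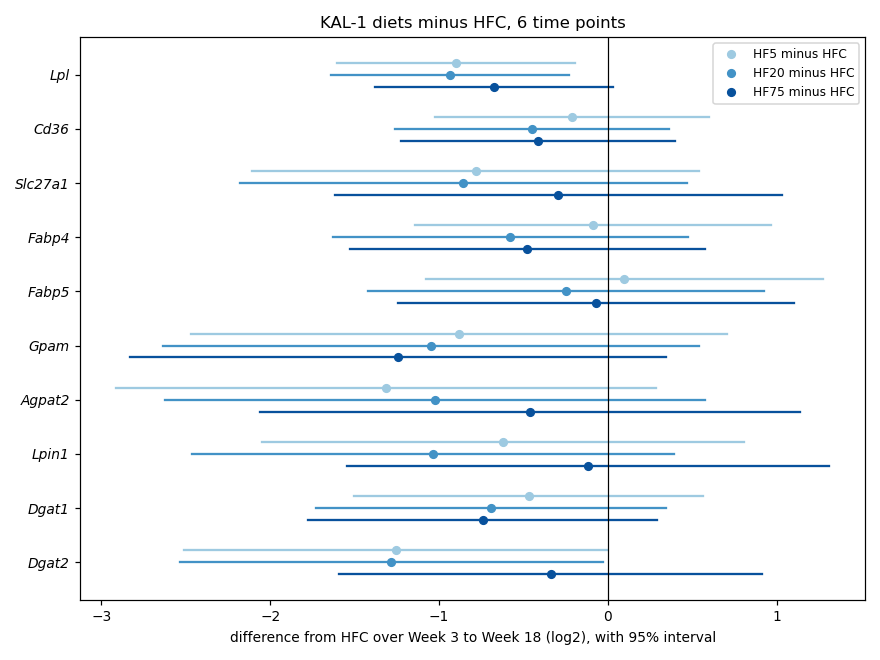
Difference of each KAL-1 diet from HFC (log2, x axis) for the 10 genes, averaged over 6 time points from Week 3 to Week 18, with the 95% interval of the limma fit as a line. Fabp4 is drawn by its unsaturated probe. The intervals of Lpl and Dgat2 in HF5 and HF20 lie below 0 before adjustment over all genes, and the other intervals include 0.

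Lpl was lower on the KAL-1 diets than on HFC at most time points. Its 6 HFC arrays from Week 3 on ran from 4.79 to 6.30 (median 5.95), its HF5 arrays from 3.94 to 6.10 (median 4.52), its HF20 arrays from 3.68 to 5.87 (median 4.68) and its HF75 arrays from 4.14 to 6.21 (median 5.06). The ranges overlap in all cases. HF5 minus HFC was -0.90 (SE 0.34) with p = 0.0145, and HF20 minus HFC was -0.94 (SE 0.34) with p = 0.0113, both unadjusted limma values with adjusted p of 1 and 0.997. HF75 minus HFC was -0.67 (SE 0.34, 95% interval -1.38 to 0.03).
With the HF5 and HF20 arrays of Week 12 exchanged, Lpl gave -0.94 in HF5 and -0.90 in HF20. Without Week 6 the values were -0.62 in HF5 (limma p = 0.105) and -0.74 in HF20 (p = 0.0594), and without Week 3 they were -0.64 (p = 0.0878) and -0.77 (p = 0.0438).

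The mean of the 3 KAL-1 diets minus HFC was -0.84 for Lpl (SE 0.28, 95% interval -1.41 to -0.26), or 0.56-fold, with an unadjusted limma p of 0.00625. By week it was -1.68 at Week 3, -2.12 at Week 6, -0.83 at Week 9, 0.73 at Week 12, -0.76 at Week 15 and -0.36 at Week 18. Taken array by array, 14 of 18 KAL-1 arrays were below the HFC array of their week. The unsaturated Lpl probe gave -0.98 (95% interval -1.91 to -0.06) with 13 of 18 arrays below. In this comparison Lpl was the only one of the 10 under an unadjusted 0.05, which 4.51% of all genes were, and no gene passed after adjustment (0%). Without Week 6 the Lpl value was -0.58 with p = 0.0688 in limma. With scan day in the block Lpl was at -0.93 (limma p = 0.00104), and Gpam (-1.34, p = 0.0277) and Dgat2 (-1.12, p = 0.0138) were also under an unadjusted 0.05. There the HFC array of Week 12 shares a block with HF75 only, and the share of all genes under 0.05 is not given.

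Dgat2, the enzyme of the last acylation step, had wider intervals than Lpl. HF5 minus HFC was -1.26 (SE 0.61) with an unadjusted limma p of 0.0499, HF20 minus HFC -1.28 (95% interval -2.54 to -0.03) with p = 0.0459, and HF75 minus HFC -0.34 (95% interval -1.59 to 0.92). The 6 HFC arrays ran from 1.27 to 6.43 (median 5.12), against 1.64 to 6.30 in HF5 (median 2.61), 1.05 to 5.60 in HF20 (median 3.55) and 2.80 to 5.50 in HF75 (median 4.55).
Of the HFC spots 2 were saturated, those of Week 3 and Week 6, where the KAL-1 diets differed most. With saturated spots left out, which removes these spots, HF5 minus HFC was -0.15 and HF20 minus HFC -0.18. The unsaturated probe, which reads them, gave -1.55 (unadjusted limma p = 0.0765) and -1.65 (p = 0.0607). With the Week 12 arrays exchanged, the brightest probe gave -1.37 in HF5 (p = 0.033) and -1.165 in HF20 (p = 0.0669), so the side of 0.05 on which HF20 falls rests on that label. Without Week 6, HF5 and HF20 minus HFC were both -0.71 and HF75 minus HFC was 0.18. Without Week 3, HF5 and HF20 were at -0.83 and -0.91.

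The other synthesis genes had negative differences in every KAL-1 diet with the time point as a block, with intervals that include 0, and most of them were smaller in size without Week 3. Gpam gave -0.88, -1.05 and -1.24 in HF5, HF20 and HF75, with 2 of its 6 spots in HF5, 2 in HF20 and 3 in HF75 not well above background, and with normexp background correction its values in HF20 and HF75 were 0.90 and 0.10.
Agpat2 gave -1.31, -1.02 and -0.46, and without Week 3 -0.66, -0.36 and 0.29. Lpin1 gave -0.62, -1.04 and -0.12, and without Week 3 -0.10, -0.59 and -0.38. Its sign in HF75 also turned with scan day in the block (0.09) and without Week 6 (0.39).
Dgat1, which shares the last step with Dgat2, gave -0.47, -0.69 and -0.74, and without Week 3 -0.03, -0.29 and -0.24. Without Week 3 Gpam gave -0.40, -0.40 and -1.30.
Among the uptake genes Slc27a1 gave -0.78, -0.86 and -0.29, and without Week 3 -0.36, -0.46 and -0.19. Without Week 6 its value in HF75 was 0.23. Cd36 gave -0.21, -0.45 and -0.42, the last of which was -0.06 without Week 3. Fabp4 gave -0.09, -0.58 and -0.48 by the unsaturated probe, and Fabp5 0.10, -0.25 and -0.07, the last of which was 0.04 with normexp background correction and 0.63 without Week 3. Standard errors were 0.39 for Cd36, 0.51 for Fabp4 and 0.57 for Fabp5, so differences of this size lie within the spread between time points.

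The KAL-1 differences also varied with the week. At Week 3, 9 of the 10 genes were below HFC in HF5, 9 in HF20 and 9 in HF75, with medians of -2.79, -2.79 and -1.91. Among all genes 56%, 57.4% and 53.8% were above HFC. At Week 6 the counts were 8, 10 and 9, with medians of -2.41, -2.29 and -2.39, against 49.7%, 52.3% and 53.7% of all genes above. At Week 12 all 10 genes were above HFC in each KAL-1 diet, with medians of 1.00, 0.83 and 0.85, against 52.5%, 59% and 48.3% of all genes. The adipocyte marker mean differed from HFC in the same direction, by -3.15, -2.89 and -3.13 at Week 3 and by 2.36, 1.68 and 1.06 at Week 12. Over the 6 weeks its mean difference was -0.63, -0.93 and -0.33. The skeletal muscle marker mean was above HFC at 5 of 6 weeks in each KAL-1 diet, with mean differences of 2.54, 2.15 and 3.16, and by 10.63 in HF75 at Week 3. Over the 6 weeks the lymphocyte marker mean differed from HFC by 0.87, 1.42 and 0.11, and that of mammary and simple epithelium by 0.55, 0.41 and 0.32. The epithelial differences were 2.84, 5.15 and 1.90 at Week 3 and 1.19, -0.75 and 1.85 at Week 12. The part of these markers was not tested. All of these use the single HFC array of the week.

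Against the low-fat diet no gene passed after adjustment for any dose in limma (0%). By the brightest probes none of the 10 had an unadjusted p under 0.05 for HF5, HF20 or HF75 minus LFC, against 2.45%, 2.84% and 3.63% of all genes. Lpl differed from LFC by 0.03 (95% interval -0.67 to 0.73) in HF5, -0.01 (95% interval -0.71 to 0.69) in HF20 and 0.26 (95% interval -0.45 to 0.96) in HF75. Agpat2 had the smallest p, with HF5 minus LFC at -1.60 (SE 0.78, limma p = 0.0507), where Week 12 alone gave -4.81. Without Week 12 the value was -0.96 (p = 0.178) and without Week 3 -1.81 (p = 0.0288).

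Over the 39 arrays most pairs of the genes varied together. Of the 45 pairs, 42 had r above 0, with a median r of 0.61 and a range of -0.13 to 0.89. Slc27a1 and Agpat2 had the highest r (0.89, Spearman's rho 0.84), followed by Lpl and Dgat2 (0.88, rho 0.90). Cd36 stood with the binding proteins, at r = 0.83 with Fabp4 (rho 0.58) and 0.79 with Fabp5 (rho 0.64), but at -0.13 with Lpin1 and -0.07 with Gpam. Fabp4 and Fabp5 had r = 0.87 (rho 0.75). These are descriptions over arrays that share diets, time points and the scaling to the 75th percentile.

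Cd36, Fabp4 and Fabp5 were low together on 3 arrays. On the LFC array of Week 3 their levels were 3.23, 2.87 and -0.08. On the HFC array of Day 1 their levels were 2.72, 1.39 and -2.31, and on the HF75 array of Week 3 they were 3.17, 1.57 and -2.68. On the latter pair of arrays Lpin1 was at 3.34 and 4.61, high among the 39, and the mean of 7 skeletal muscle markers was at 6.22 and 7.57, against a median of 0.14 on LFC. The HF5 array of Week 12 also had high muscle markers (6.5), with Cd36 at 5.36, Fabp4 at 5.25 and Fabp5 at 1.01. The mean of the macrophage markers was -1.67 and -2.23 on the HFC array of Day 1 and the HF75 array of Week 3, the lowest of the 39. The mean of 5 endothelial markers was 1.09 and 0.57 there, against a median of 3.38 on LFC. On the LFC array of Week 3 the endothelial mean was 1.20, and the lymphocyte marker mean was 2.40, the highest of the 39. The endothelial mean was also low on the LFC arrays of Day 6 (1.43) and Week 12 (1.38), where Fabp5 was at 2.98 and 2.28. Over 39 arrays Lpin1 had r = 0.59 with the muscle markers and 0.66 with the adipocyte markers. Cd36 had r = 0.72 with the endothelial markers and 0.38 with the adipocyte markers. The part of these cell types in the levels was not tested.

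The mean of the 10 genes ran from 0.26 (LFC array of Week 3) to 4.16 (LFC array of Day 6) with a median of 1.57. It followed the mean of the 6 adipocyte markers with r = 0.91 (rho 0.93). With the markers of mammary and simple epithelium r was -0.55 (rho -0.44). For the other lists r was -0.35 (lymphocyte), -0.34 (skin), 0.31 (skeletal muscle), -0.19 (endothelium), -0.13 (fibroblast) and -0.02 (macrophage). Several epithelial and skin markers lay near background, with the skin markers Krt1 and Krt10 well above it on 2 and 11 arrays. Among 22704 other genes, the 5 most like the mean of the 10 brightest probes over 39 arrays were Plin1 (r = 0.96, rho 0.97), Pcx (0.95, rho 0.95), Adora1 (0.95, rho 0.94), Pex16 (0.94, rho 0.90) and Gpt (0.94, rho 0.92). Plin1 codes for the coat protein of the fat droplet, and Pcx for pyruvate carboxylase. With Fabp4 by its unsaturated probe the 5 were Plin1, Adora1, Cebpa, Smoc1 and Aacs, so only Plin1 and Adora1 were named both ways.

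**Figure D5:**
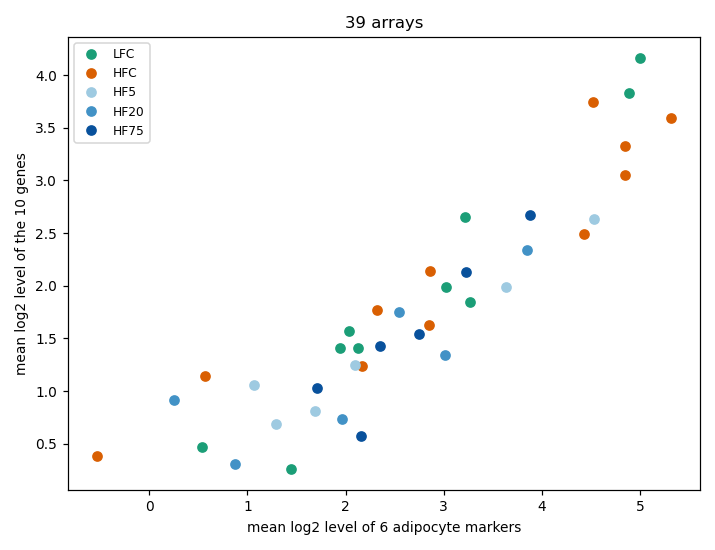
Mean log2 level of the 10 genes (y axis) against the mean log2 level of 6 adipocyte markers (x axis) for 39 arrays, coloured by diet. The points lie along a diagonal (r = 0.91), and the diets overlap along it.

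Other genes of the pathway were read from a list of 37, all of which were found on the array under their symbol or an older name, and 36 were tested in each comparison. None passed the adjusted threshold in limma in any of the 12 comparisons. For HFC minus LFC over 10 time points, 25 were higher and 11 lower with a median of 0.22, and 3 were higher at an unadjusted p under 0.05, beside 5.86% of all genes in either direction. These were Fitm2, a protein of droplet formation (1.27, limma p = 0.00809), the droplet protein Plin4 (0.85, p = 0.0411) and Gpat3, an acyltransferase of the first step (1.32, p = 0.0464).
For the mean of the KAL-1 diets minus HFC, 18 were higher and 18 lower with a median of -0.05, and 3 were lower at an unadjusted p under 0.05, beside 4.51% of all genes in either direction. These were Mogat2, which acylates monoacylglycerol (-1.66, limma p = 0.0134), Gpat3 (-1.34, p = 0.0222) and Bscl2, the gene of seipin (-0.92, p = 0.0312). Late minus early over both diets, 26 of 36 were lower with a median of -0.33, while 48.7% of all genes were higher. By role, 4 of 4 genes of glycerol 3-phosphate supply, 7 of 8 droplet proteins, 9 of 13 uptake partners and 6 of 11 other acyltransferases and phosphatases were lower. An unadjusted p under 0.05 was reached by 1 higher and 4 lower genes of the 36, beside 13.3% of all genes. The smallest p were those of Acsl5 (-0.42, limma p = 0.0255), Slc27a2 (-1.76, p = 0.0259) and Gk (-0.97, p = 0.0323), an acyl-CoA synthetase, a fatty acid transporter and glycerol kinase.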

How the data were processed

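Total RNA of mouse subcutaneous adipose tissue was hybridised to 1-colour (Cy3) Agilent arrays, 39 in all. Per the file headers, the deposited array files hold the intensity of each spot in the scanner's units, extracted with Feature Extraction 10.5.1.1 (the labels name 9.1), with background subtracted and spatial trends corrected, and no scaling between arrays. The deposited flags are other values of 0 or 1 per spot (saturated, well above background, outlier). Values in the deposited table of the whole series are log2 ratios to the LFC array of the time point and were used only as an alternative and for the check of labels. How they were made is not given in the sources used here.

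The processed signal was put on the log2 scale and each array's 75th percentile subtracted. Outlier-flagged spots were dropped. In the tests a gene was represented by its brightest probe (for Fabp4 the text leads with its unsaturated probe), and entered the fit where the number of arrays with a spot well above background was no lower than the size of the smallest group, which left 19873 genes for LFC and HFC (20 arrays) and 21087 for Week 3 to Week 18 (30 arrays). The fits used limma 3.58.1 (R 4.3.3, data.table version 1.17.8), with the time point as a block except for late against early and the slope per week. P-values were two-sided, adjusted by Benjamini-Hochberg over all genes with a threshold of 0.05, and measure the spread between time points, except for late against early and the slope, where each array counts as 1 sample although arrays of a time point share it. Summaries used Python 3.11.15, pandas 2.3.3, numpy 2.4.6 and scipy 1.17.1. The fits were tested on simulated data. Intervals are 95% intervals of the fit. The design text speaks of 3 biological replicates, while there is 1 array per diet and time point here. Array annotation gave no mapped positions, so no coordinates are given.

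The 10 genes, the pathway list and the marker lists were chosen with earlier results of these data known. Named by rule were all 10 genes, up to 3 pathway genes with the smallest p per comparison described, and the 5 genes most like the mean of the 10. Of 29 alternatives 3 were chosen after seeing the data: each probe tested on its own, the HF20 array of Week 15 left out, and time point means for late against early and the slope. The number of arrays limits the precision.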

Additional observations from a re-analysis of the deposited data

Results flagged for a closer look

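Among the 50 groups of levels examined (10 genes in 5 diets, without the HFC array of Day 1, which has no LFC partner), 5 held an array whose gap to the nearest other array of its diet exceeded Dixon's 95% limit. Chance flags about 1 in 20 such groups. Cd36 on the LFC array of Week 3 was at 3.23, against 4.80 to 5.79 on the other LFC arrays. On the same array Fabp4 by its unsaturated probe was at 2.87, against 4.60 to 5.73. Lpin1 on the HF75 array of Week 3 was at 4.61, against 0.17 to 1.65 on the other HF75 arrays. Dgat2 on the HFC array of Week 15 was at 1.27, against 3.90 to 6.55. Gpam on the HF75 array of Week 15 was at -7.64, against -5.08 to -3.71, and was not well above background there.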

How the results depend on the processing

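Over 29 alternatives, 2786 differences of the 10 genes were recomputed, of which 2603 kept their sign and 18 moved by more than 1 SD, counted for Fabp4 by its saturated brightest probe. The methods' t-test called none of the 10 in the comparisons it was run for. No gene of the 10 passed the adjusted limma threshold under any alternative, with 3 exceptions: Fabp5 late minus early with array weights (1 gene, adjusted p = 0.0282), and Lpl and Dgat2 in HF20 minus HFC with normexp background correction (2 genes, adjusted p = 0.0155 and 0.0207). That correction called 8080 genes in HF20 minus HFC and moved the median of all genes there to 0.36. For late minus early, the 44 genes called became 3 with normexp, 23 with no filter on dim probes, 7 with a filter on every array, 270 with array weights, 24 by the methods' t-test, 0 with time point means, and between 3 (without Day 6, Day 10 or Week 15) and 157 (without Week 3) with 1 time point left out. For the slope per week, the 20 genes called became 1 with normexp, 3 with no filter, 4 with the mean of all probes, 489 with array weights, 1 where slides entered as random blocks, 0 with time point means, and between 0 (without Week 18) and 2894 (without Week 3) with 1 time point left out. The cause of these changes was not tested. The unadjusted p of Lpl stayed under 0.05 in 24 of 25 alternatives for HFC minus LFC (0.0836 with the unsaturated probe in place of the brightest), 18 of 24 for HF5 minus HFC, 22 of 24 for HF20 minus HFC and 23 of 24 for the KAL-1 mean. The number of the 10 under an unadjusted 0.05 ran from 0 to 5 over the alternatives for HFC minus LFC and for HF5 minus HFC, from 0 to 6 for HF20 minus HFC and for the KAL-1 mean, and from 0 to 2 for HF75 minus HFC. The share of all genes under 0.05 in each alternative is not given here, so these ranges cannot be set against it. With saturated spots left out, Dgat2 changed sign for HFC minus LFC from Week 3 on (from 0.69 to -0.32) and for the KAL-1 mean (from -0.96 to 0.15), and Fabp4 could not be fitted. The slide could not be fitted as a block for the comparisons of the 20 LFC and HFC arrays. The methods' t-test was not run for the change of the diet difference with time or the slope per week. The time point pairs the diets as a block, and with no replicate block 0 genes passed the adjusted threshold in these comparisons, as with it. The few replicate numbers in sample titles pair no arrays beyond that. Saturation limits the bright probes of Fabp4, Lpl and Dgat2 and the adipocyte markers Cfd and Adipoq. Signal near background limits Gpam and the marker lists of mammary and simple epithelium and of skin.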
